A study of Mus musculus with 6 samples.

Results

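The creatine kinases and the genes that supply them with creatine were described in E9.5 mouse hearts with and without a conditional deletion of *Hic2*. The 8 genes were taken by name, and each had 1 transcript cluster, the array's unit for a gene, annotated to it alone, out of 14996 such clusters on the array. They comprise the cytosolic kinases *Ckm* and *Ckb*, the mitochondrial kinases *Ckmt1* and *Ckmt2*, the enzymes of creatine synthesis *Gatm* and *Gamt*, the creatine transporter *Slc6a8* and the adenylate kinase *Ak1*. Each sample was a pool of 4 to 6 whole hearts with their blood, on 1 Affymetrix Mouse Exon 1.0 ST array, which carries probes along the exons of each gene. The 3 mutant pools came from *Mesp1Cre/+; Hic2 FL/FL* embryos and the 3 wildtype pools from *Mesp1+/+; Hic2 FL/FL* embryos by their labels, although the methods also allowed wildtype embryos with a single floxed *Hic2* allele. Cre sits in the *Mesp1* locus and deletes *Hic2* in tissues that arise from the anterior mesoderm, part of the blood included, and its knock-in also removes 1 copy of *Mesp1* from the mutants. A group with Cre alone was not analysed here, so that loss of *Hic2* and loss of 1 *Mesp1* copy cannot be told apart. The pools were taken from embryos without a visible phenotype.

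Creatine kinase moves a phosphate group between ATP and creatine and so keeps a store of energy that muscle and brain can draw on at once. Cytosolic isoforms work as dimers of muscle (CKM) and brain (CKB) subunits, while the mitochondrial isoforms load creatine with phosphate where ATP is made. Creatine is built from arginine and glycine by GATM, methylated by GAMT and taken up into cells by SLC6A8. AK1 shuttles phosphate through the reaction of 2 ADP to ATP and AMP, a parallel route of energy transfer in muscle and red cells.

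The 250 bases before the annotated starts of *Ckm*, whose level changed, and of *Ckb*, its paralogue, whose level did not pass the test, are shown for comparison. The sequences are from RefSeq (GRCm38.p6) and run 5′ to 3′ on the strand of the gene, and capitals mark GGCA or its reverse complement TGCC, the core of the site that HIC1, the close relative of HIC2, is known to bind.
*Ckm*, chr7:19410844-19411093, plus strand: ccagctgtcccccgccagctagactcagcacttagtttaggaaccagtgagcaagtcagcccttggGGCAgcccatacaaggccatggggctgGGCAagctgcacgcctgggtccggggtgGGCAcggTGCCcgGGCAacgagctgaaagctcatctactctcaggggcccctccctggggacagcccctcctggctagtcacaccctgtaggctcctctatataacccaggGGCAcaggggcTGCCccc
*Ckb*, chr12:111672339-111672588, minus strand: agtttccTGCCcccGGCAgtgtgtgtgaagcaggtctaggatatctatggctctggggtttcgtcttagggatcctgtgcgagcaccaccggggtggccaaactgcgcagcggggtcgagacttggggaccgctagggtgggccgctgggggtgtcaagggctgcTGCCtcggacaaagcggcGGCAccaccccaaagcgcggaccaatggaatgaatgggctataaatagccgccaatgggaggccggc
GGCA stood 7 times before *Ckm*, counting both strands, and 4 times before *Ckb*. Of 32851 windows of this length before annotated starts, 88.2% held at least 1 match, the median was 2 matches, and 1.42% held 7 or more. The longer form GGGCANCC, which contains the core, occurred 2 times before *Ckm* and 0 times in the windows of the 6 other members with an entry. At least 1 match was held by 4.53% of all windows and 2 or more by 0.183%. The window of *Ckm* had a GC content of 64.8% and that of *Ckb* 62.8%. GGCA also stood 6 times in 2 of the 4 windows of *Ak1*, a gene whose level did not pass the test. The muscle E-box CANNTG, which reads the same on both strands, occurred 1 time before *Ckm* and 0 times before *Ckb*, and 66.2% of all windows held it. Such matches are letters in a sequence, and binding was not measured on these arrays.

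Genotypes were compared on the authors' log2 values with limma, which fits a linear model to each cluster and shares the estimate of spread between clusters. Its p-values were adjusted over all 10439 annotated clusters with a mean over 100 on the linear scale (6.64 on the log2 scale) in the higher genotype. A difference is the mutant mean minus the wildtype mean, and the level of one cluster cannot be set against that of another. Of the 8 members, 6 passed this filter and were tested, and *Ckmt1* and *Ckmt2* did not pass it. *Hic2* was at 8.27, 8.23 and 8.37 in mutant pools and at 9.35, 9.36 and 8.91 in wildtype pools, each mutant pool below each wildtype pool, and the difference was -0.92 (standard error 0.137), which did not pass (limma, adjusted p = 0.125). The median of each array lay between 7.21 and 7.31 in mutant pools and between 7.18 and 7.30 in wildtype pools, and the median difference of all clusters tested was -0.09. All 8 cardiomyocyte markers with a cluster passed the filter, with a median level of 13.23 to 13.49 over mutant arrays and 13.11 to 13.37 over wildtype arrays.

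*Ckm*, the muscle isoform, rose in the mutant, and the other members tested did not pass the test. At an adjusted p under 0.05 from limma, 1 of the 6 members tested was called, against 0.0671% of all clusters, and it was higher in the mutant. *Ckm* was at 11.00, 11.21 and 10.67 in mutant pools and at 8.18, 8.27 and 8.18 in wildtype pools. The lowest mutant pool lay 2.39 above the highest wildtype pool. *Ckm* was the single member of the 8 whose genotypes did not overlap, a count near the 12.4% of all clusters tested without overlap, so that the count alone does not set the members apart. The difference was 2.75 on the log2 scale (standard error 0.141, 95% interval 2.42 to 3.07), a 6.71-fold higher level (adjusted p = 2.43e-04 from limma). The spread of *Ckm* was unequal between genotypes, with an SD of 0.27 over the mutant pools and 0.05 over the wildtype pools (n = 3 each), where the median SD over all clusters tested was 0.14 in the mutant and 0.13 in the wildtype. By the methods' t-test, which estimates the spread of each cluster alone, *Ckm* had an unadjusted p of 6.91e-05 and an adjusted p of 0.588.

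**Figure D1:**
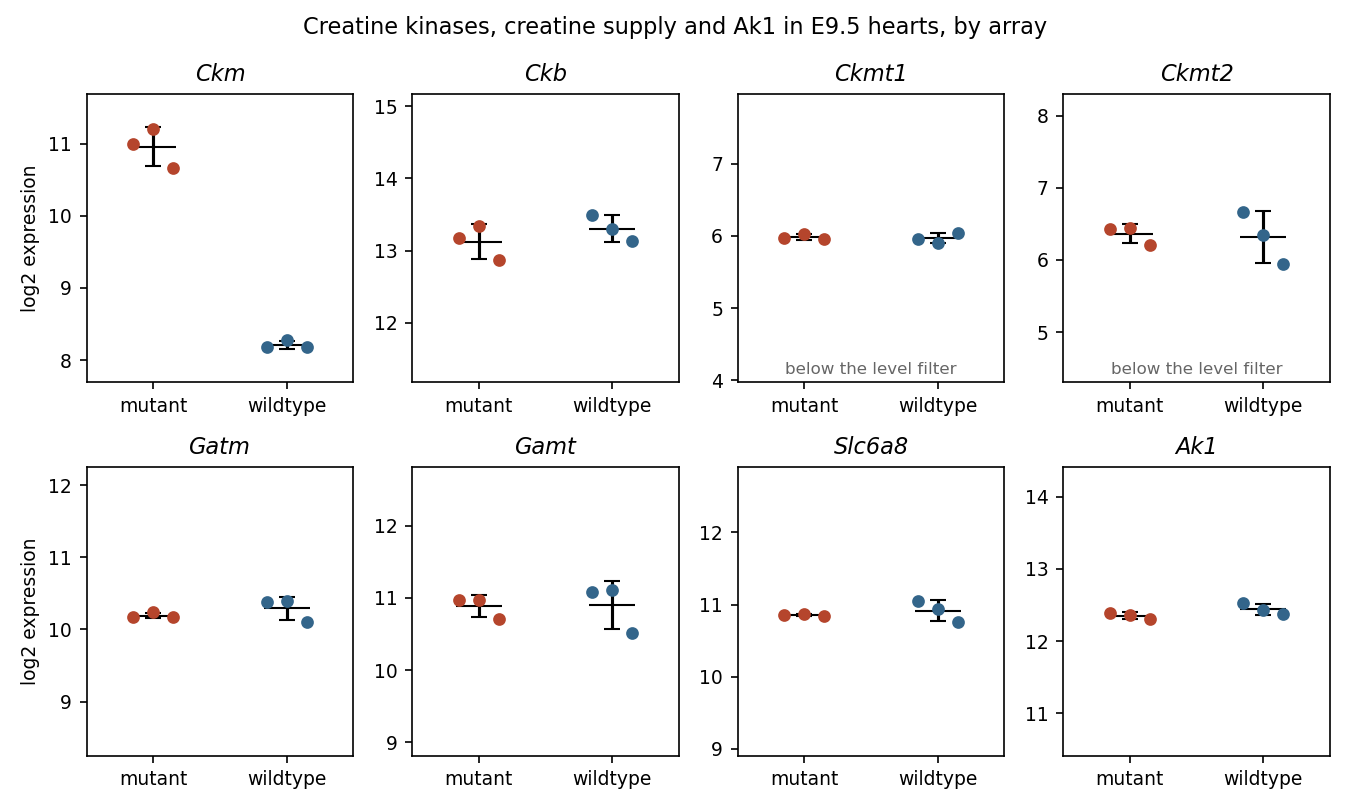
Log2 expression of the 8 members by array (points), with the mean and SD of each genotype (bars, n = 3), mutant on the left and wildtype on the right of each panel. Every panel spans the same 4 log2 units, and *Ckm* is the panel in which the genotypes lie apart, at 10.67 to 11.21 in mutant and 8.18 to 8.27 in wildtype arrays.

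*Ckb*, the brain isoform that the embryonic heart uses before CKM, was at 13.17, 13.34 and 12.86 in mutant pools and at 13.49, 13.30 and 13.13 in wildtype pools. The genotypes overlapped, and the difference was -0.18 (standard error 0.149, 95% interval -0.52 to 0.16, adjusted p = 0.666 from limma). Single arrays moved this value, to -0.29 without mutant replicate 2, -0.05 without mutant replicate 3 and -0.09 without wildtype replicate 1. The interval holds a fall as well as a small rise, so that a modest change of *Ckb* was not detectable with 3 arrays per genotype. Within the mutant, *Ckm* and *Ckb* were ordered alike, both highest in replicate 2 and lowest in replicate 3. The log2 value of *Ckm* minus that of *Ckb* was thus close to the same in the mutant pools, at -2.17, -2.13 and -2.20, while it was -5.31, -5.02 and -4.95 in wildtype pools. These values carry the unequal brightness of the 2 sets of probes, and only their change between genotypes was read, a shift of 2.93.

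Each other member was then set against *Ckm* within the arrays. The change of *Ckm* exceeded that of *Ckb* by 2.93, of *Gatm* by 2.85, of *Ak1* by 2.83, of *Slc6a8* by 2.81, of *Gamt* by 2.77, of *Ckmt1* by 2.73 and of *Ckmt2* by 2.70. In each of these 7 comparisons all mutant arrays lay above all wildtype arrays, and the exact two-sided permutation p was 0.1, adjusted 0.1 over the 7, which is the smallest that 3 arrays against 3 allow. The design therefore cannot reach the threshold by this test. All 7 comparisons share the same *Ckm* values, so they are not independent of each other, and *Ckmt1* and *Ckmt2* lay below the level filter. Differences of the other members between genotypes ran from -0.18 to 0.04. The comparisons therefore restate the change of *Ckm* and add no support to it.

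The mitochondrial kinases were dim. *Ckmt1*, the ubiquitous isoform, was at 5.96, 6.03 and 5.96 in mutant pools and at 5.96, 5.90 and 6.04 in wildtype pools, and *Ckmt2*, the isoform of heart and skeletal muscle mitochondria, was at 6.43, 6.44 and 6.21 in mutant pools and at 6.67, 6.34 and 5.94 in wildtype pools. The group means of both lay below the filter in either genotype, and the genotypes overlapped. Without the filter, the difference was 0.02 for *Ckmt1* (95% interval -0.18 to 0.22) and 0.04 for *Ckmt2* (95% interval -0.37 to 0.46), with unadjusted p-values from limma of 0.851 and 0.810.

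The enzymes of creatine synthesis and the transporter lay at similar levels in both genotypes. *Gatm*, which makes guanidinoacetate from arginine and glycine, was at 10.17, 10.24 and 10.17 in mutant pools and at 10.38, 10.39 and 10.11 in wildtype pools (difference -0.10, 95% interval -0.35 to 0.15). *Gamt*, which methylates guanidinoacetate to creatine, was at 10.97, 10.98 and 10.71 in mutant pools and at 11.09, 11.11 and 10.52 in wildtype pools (difference -0.02, 95% interval -0.41 to 0.37). In both genes the 3 mutant values fell inside the range of the wildtype values. *Slc6a8*, the sodium-dependent carrier that brings creatine into the cell, was at 10.86, 10.87 and 10.84 in mutant pools and at 11.05, 10.94 and 10.77 in wildtype pools (difference -0.06, 95% interval -0.30 to 0.18). Their adjusted p-values from limma were 0.740 for *Gatm*, 0.969 for *Gamt* and 0.833 for *Slc6a8*. For these genes, wildtype replicate 3 was the lowest array of its genotype, and the mutant pools were the less spread genotype, with SDs of 0.04, 0.16 and 0.02 in mutant pools and 0.16, 0.33 and 0.14 in wildtype pools for *Gatm*, *Gamt* and *Slc6a8* in that order (n = 3 each).

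*Ak1*, the cytosolic adenylate kinase of muscle, brain and red cells, was at 12.39, 12.37 and 12.30 in mutant pools and at 12.52, 12.43 and 12.37 in wildtype pools. The highest mutant pool lay just above the lowest wildtype pool, and the difference was -0.09 (standard error 0.0944, 95% interval -0.30 to 0.13, adjusted p = 0.736 from limma), close to the median of all clusters tested. Of the 6 members tested, 5 had a lower mean in the mutant, and the differences of those 5 ran from -0.18 in *Ckb* to -0.02 in *Gamt*. The means of 71.8% of all clusters also lay lower in the mutant. At an unadjusted p under 0.05 from limma, 1 member (*Ckm*) was called, against 7.58% of all clusters, with 1 higher against 1.68% and 0 lower against 5.9%. These background counts, 175 clusters higher and 616 lower, moved with single arrays. Leaving out any 1 array moved the count of lower clusters by over 1.5 times, to between 179 without wildtype replicate 1 and 1913 without wildtype replicate 3, and the count of higher clusters ran from 116 without mutant replicate 1 to 342 without mutant replicate 3. After cyclic loess 389 were higher and 475 lower, and after cardiomyocyte marker centring 62 were higher and 1721 lower.

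**Figure D2:**
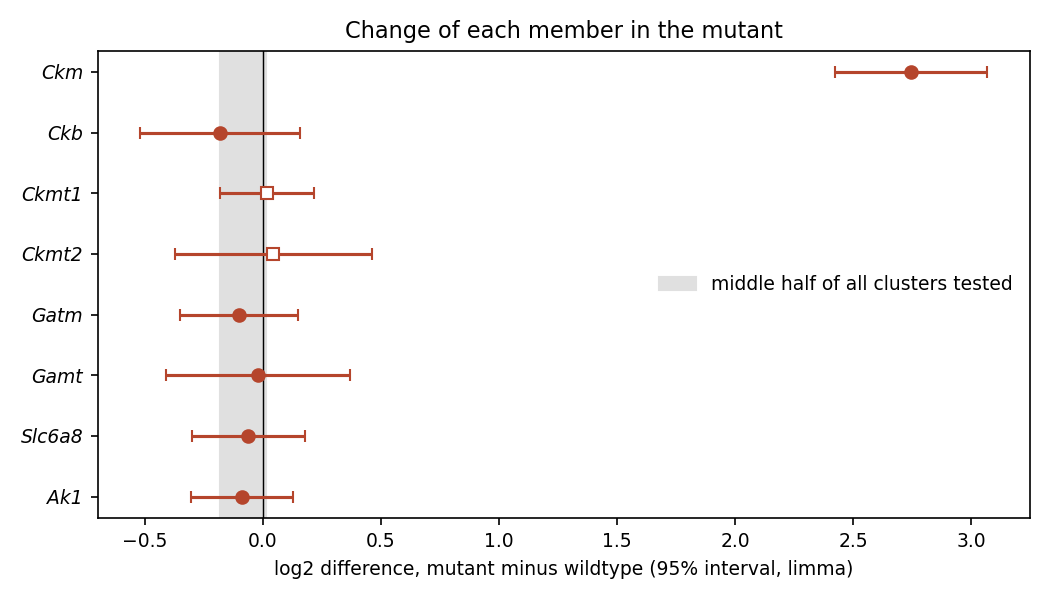
Log2 difference of each member, mutant minus wildtype, with its 95% interval from limma, where open squares are the 2 members below the level filter (fitted without it) and the grey band runs between the quartiles of all clusters tested (-0.18 to 0.02). *Ckm* lies at 2.75, and the intervals of the other 7 members include 0.

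Marker genes were set beside these values, since the pools held several cell types, and in such bulk samples fewer cells of a type and less RNA per cell cannot be told apart. Of all clusters tested, limma called 0.0671%, and 71.8% had a lower mean in the mutant. At an unadjusted p under 0.05 from limma, 1.68% were higher and 5.9% lower. Of the 17 erythroid markers tested, 16 had a higher mean in the mutant (0 called by limma, 15 at an unadjusted p under 0.05), with a median level of 8.92, 8.62 and 9.46 in mutant pools and 8.58, 8.15 and 7.69 in wildtype pools. Mutant replicate 3, with the highest erythroid median, had the lowest *Ckm* and *Ckb* of the mutants, and mutant replicate 2, with the lowest erythroid median of that genotype, had the highest. The wildtype did not share this order. There *Ckb* fell with the erythroid median, at 13.49, 13.30 and 13.13, and *Ckm* followed neither, at 8.18, 8.27 and 8.18. Liver and yolk sac markers with a cluster, tested or not, numbered 11, of which 10 had a higher mean in the mutant. Of the 7 tested, 0 were called by limma and 1 was higher at an unadjusted p under 0.05. Among those 7, 3 were tested for their mutant level alone. Medians of the 11 were 6.32, 5.92 and 8.04 in mutant pools and 6.92, 6.16 and 5.87 in wildtype pools. By this median too, mutant replicate 3 was the highest of the mutants and mutant replicate 2 the lowest. Cardiomyocyte markers had medians of 13.44, 13.49 and 13.23 in those mutant pools, in the same order as *Ckm*, and of 13.30, 13.37 and 13.11 in wildtype pools. When each array was centred on its cardiomyocyte markers, which was chosen after seeing the data, the difference of *Ckm* was 2.62 (adjusted p = 1.26e-06 from limma), and *Ckb* reached an unadjusted p of 0.0446 at a difference of -0.31 (adjusted p = 0.293). That centring moved the median difference of all clusters by -0.13. With that erythroid median fitted as a covariate, *Ckm* differed by 3.01 (adjusted p = 0.0414 from limma), and it was then the 1 cluster called. Each mutant erythroid median lay above each wildtype one, so this fit cannot cleanly separate blood content from genotype. It moved the median difference of all clusters by -0.14, and 24.9% of all clusters were then lower at an unadjusted p under 0.05 from limma.

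Skeletal muscle, another source of *Ckm*, was checked with 23 markers, of which 17 had a cluster and 9 were tested. The 4 myogenic regulators *Myod1*, *Myf5*, *Myf6* and *Myog* were all below the filter in both genotypes, with group means of 5.32 to 6.30 in the mutant and 5.12 to 6.28 in the wildtype. The median level of the 17 was 6.53 to 6.74 over mutant arrays and 6.45 to 6.58 over wildtype arrays. Over all 17 with a cluster, 7 had a higher and 10 a lower mean in the mutant. Of the 9 tested, 4 were higher and 5 lower, and *Tnnc2*, a higher one, passed the filter through its mutant level alone. By limma 1 was called, against 0.0671% of all clusters, the fast skeletal troponin *Tnnt3*. Its partner *Tnni2*, the fast troponin I, averaged 9.81 in mutant and 9.02 in wildtype pools (difference 0.79; limma, unadjusted p = 0.00934, adjusted p = 0.606). Both were higher at an unadjusted p under 0.05 from limma, 2 of the 9 against 1.68% of all clusters, and 0 were lower. All mutant arrays lay above all wildtype arrays in 3 of the 9, *Tnnt3*, *Tnni2* and *Tnnc2*, against 2.82% of all clusters. The markers *Mylpf* and *Tnnc2* were also higher, at 0.33 and 0.23, while *Cacna1s* and *Actn3* were lower, at -0.32 and -0.28, and none of these passed. Several of these markers, such as the actin *Acta1* and the slow troponin *Tnni1*, are also made by the embryonic heart. Neural markers, which bear on the brain isoform *Ckb*, had medians of 6.45 to 6.61 over mutant arrays and 6.34 to 6.73 over wildtype arrays. Of the 9 with a cluster 4 had a higher and 5 a lower mean in the mutant. Of the 4 tested 0 were called by limma, with 2 lower at an unadjusted p under 0.05, against 5.9% of all clusters. These were the neurofilament *Nefl* at -0.54 and *Stmn2*, a protein of growing axons that was tested for its wildtype level alone, at -0.39. Of 11 endothelial and endocardial markers, all tested, 9 had a lower mean in the mutant, near the 71.8% of all clusters, with a median difference of -0.20 over the 11. Of these 9, 4 were lower at an unadjusted p under 0.05, against 5.9% of all clusters, and 0 were called by limma. The part of these other cells in the values of the members was not tested.

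The genes whose 6 values were closest to those of *Ckm*, each set against its own wildtype mean, were *Cldn13*, *Pla2g5*, *Tnnt3*, *Rhd*, *Hemgn* and *Tnfrsf14*. This ranking covered the 9988 single-gene clusters tested, and clusters shared by several genes were left out of it. The root mean square difference to *Ckm* over the 6 arrays ran from 0.808 for *Cldn13*, a claudin, to 1.07 for *Tnfrsf14*, a receptor that signals in immune cells, against a median of 2.01 over the single-gene clusters tested. None lay close to *Ckm*, since their differences between genotypes, from 1.40 in *Tnfrsf14* to 1.75 in *Cldn13*, were smaller than its 2.75. Their order within the mutant also varied. *Tnnt3* was at 11.79, 11.80 and 11.54 in mutant pools and at 10.29, 10.20 and 10.10 in wildtype pools, and was lowest among mutants in replicate 3, as *Ckm* was. *Pla2g5*, a secreted phospholipase, *Rhd*, the Rh blood group antigen, *Hemgn*, a nuclear protein of blood cells, and *Tnfrsf14* were highest among mutants in that replicate.

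Genes beside *Ckm* on the chromosome did not pass the test. Of the 4 nearest genes on each side of it on chromosome 7 with a cluster of their own, all 8 were tested and 0 were called by limma, adjusted (0.0671% of all clusters) or at an unadjusted p under 0.05 (7.58%). On one side lay *Klc3*, a kinesin light chain (difference 0.04), *Ercc2*, a helicase of DNA repair and transcription (-0.20), *Ppp1r13l*, an inhibitor of p53 (-0.14), and *Cd3eap*, a subunit of RNA polymerase I (-0.21). On the other lay *Mark4*, a microtubule-associated kinase (-0.14), *Exoc3l2*, a relative of an exocyst subunit (-0.18), *Trappc6a*, a subunit of a vesicle tethering complex (0.19), and *Ppp1r37*, a regulatory subunit of protein phosphatase 1 (-0.15). Their adjusted p-values from limma ran from 0.606 to 0.913, and the genotypes overlapped in 7 of the 8, with *Ppp1r37* lower in every mutant array, where 12.4% of all clusters did not overlap. These counts lie near the shares of all clusters.

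**Figure D3:**
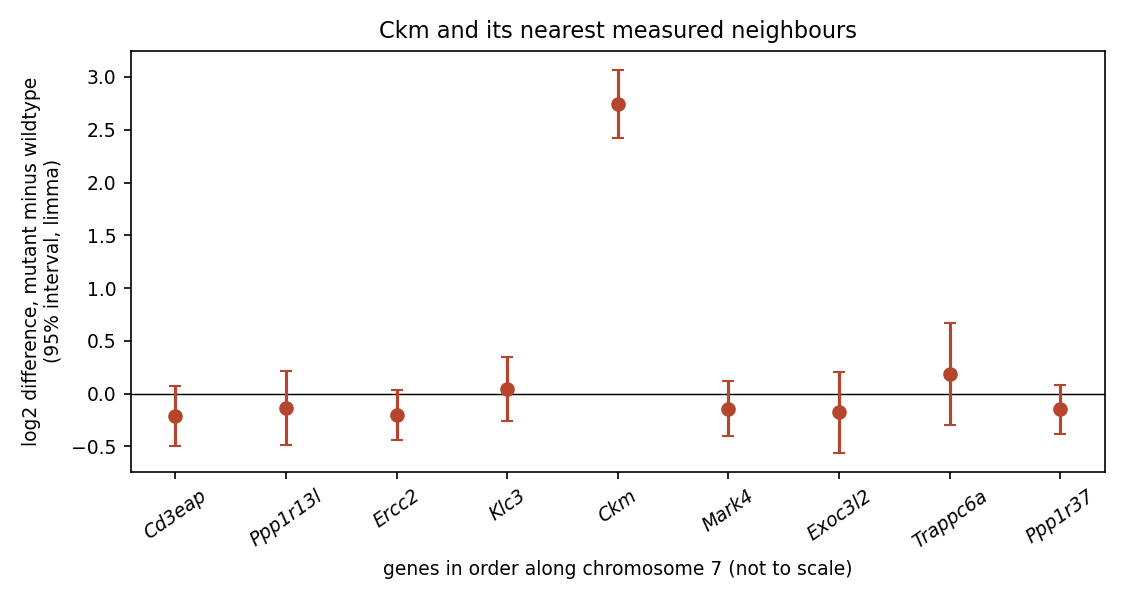
Log2 difference, mutant minus wildtype, with its 95% interval from limma, for *Ckm* and the 4 nearest measured genes on each side, in their order along chromosome 7. The 8 neighbours lie between -0.21 and 0.19, and *Ckm* at 2.75.

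The wider set of genes around the creatine system comprised 77 genes in 8 lists, of which 59 had a cluster of their own and 52 were tested. By limma, 0 of the 52 were called, against 0.0671% of all clusters. At an unadjusted p under 0.05 there were 2 higher and 4 lower, against 1.68% and 5.9% of all clusters, with a median difference of -0.02 against -0.09 over all clusters tested. Without mutant replicate 3, 13 of them (25%) were under that unadjusted threshold, as were 20% of all clusters. *Ampd3*, the AMP deaminase of red cells, was at 9.10, 8.89 and 9.36 in mutant pools and at 8.66, 8.40 and 8.39 in wildtype pools, so that the difference was 0.63 (standard error 0.142), which did not pass (limma, adjusted p = 0.370). In 1 gene of the 52, *Ampd3*, each mutant array lay above each wildtype array, a pattern shown by 2.82% of all clusters, and in 7 genes below, against 9.59%. The mutant pools of *Ampd3* were ordered as the erythroid medians of the same arrays, and with those medians as a covariate the difference was 0.27 (limma, adjusted p = 0.260). The other AMP deaminase measured, *Ampd2*, was at a difference of -0.09, and the mitochondrial adenylate kinases *Ak3* and *Ak4* were at -0.07 and 0.01.

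Of the 8 ion pumps, which use much of the ATP of a muscle cell, 0 were called by limma and 3 lay lower at an unadjusted p under 0.05, where 5.9% of all clusters were lower at that threshold (1.72% without wildtype replicate 1, 18.2% without wildtype replicate 3). *Atp2a1*, the fast-twitch calcium pump of the sarcoplasmic reticulum, was at 8.74, 8.12 and 8.55 in mutant pools and at 9.12, 9.27 and 8.89 in wildtype pools, so that the difference was -0.62 (standard error 0.170), which did not pass (limma, adjusted p = 0.558). All mutant arrays lay below all wildtype arrays in *Atp2a1*, as they did in 9.59% of all clusters. *Atp1b2*, a beta subunit of the sodium pump, was at 9.83, 9.77 and 9.78 in mutant pools and at 10.16, 10.09 and 10.05 in wildtype pools (difference -0.30, adjusted p = 0.606 from limma). *Atp2b4*, a calcium pump of the plasma membrane, had a difference of -0.32 with overlapping genotypes, and *Atp1b3*, another beta subunit of the sodium pump, one of -0.07. The 8 ion pumps tested had a median difference of -0.05.

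The lists tied to mitochondria and to creatine's precursors spread around 0. Among 8 mitochondrial carriers and pores, which pass ADP, ATP and phosphate to and from the mitochondrial kinases, 3 were higher and 5 lower by their means, with a median of -0.03. The calcium-regulated ATP carriers *Slc25a23* and *Slc25a24* were at -0.35 and -0.26, the adenine nucleotide translocator of heart and muscle, *Slc25a4*, at 0.08, and the outer membrane pore *Vdac1* at -0.08. Among 10 genes of arginine, glycine and methyl supply, 5 were higher and 5 lower, with a median of -0.02. The arginine carrier *Slc7a3* was at 0.43 with overlapping genotypes (unadjusted p = 0.0416 from limma), and its relatives were at -0.19 for *Slc7a1* and -0.34 for *Slc7a2*, which did not pass the level filter (unadjusted p = 0.0499 without it). *Gnmt*, which methylates glycine, was at 0.28, and both it and *Slc7a3* passed the filter through their mutant level alone. Over all 13 genes of the list with a cluster, 7 were higher and 6 lower by their means. *Ahcy*, which clears the S-adenosylhomocysteine that GAMT leaves behind, was at -0.27. Of the transporters, the creatine exporter *Slc16a12* had a difference close to 0 (standard error 0.0921), and the relatives of the creatine carrier were at -0.24 for *Slc6a13*, 0.29 for *Slc6a9* and -0.13 for *Slc6a6*.

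Of 6 nucleoside diphosphate kinases, which pass phosphate between ATP and other nucleotides, 4 were higher and 2 lower by their means. *Nme3* was at 0.47 (standard error 0.207; limma, adjusted p = 0.606), with *Nme2* at 0.17, *Nme1* at 0.16 and *Nme7* at -0.10. The AMP-activated protein kinase, which senses a fall in ATP, was represented by 9 subunits and activators between -0.15 and 0.11, among them *Prkaa1* at -0.15, *Cab39* at -0.13, *Prkab2* at 0.11 and *Prkag3* at 0.11. At the M-band of the sarcomere, where CKM binds in mature muscle, *Myom1* was at -0.10 and *Obsl1* at -0.19, and *Fhl2*, which docks metabolic enzymes there, was at 0.10. The smallest adjusted p from limma among these 3 lists was 0.606.

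**Figure D4:**
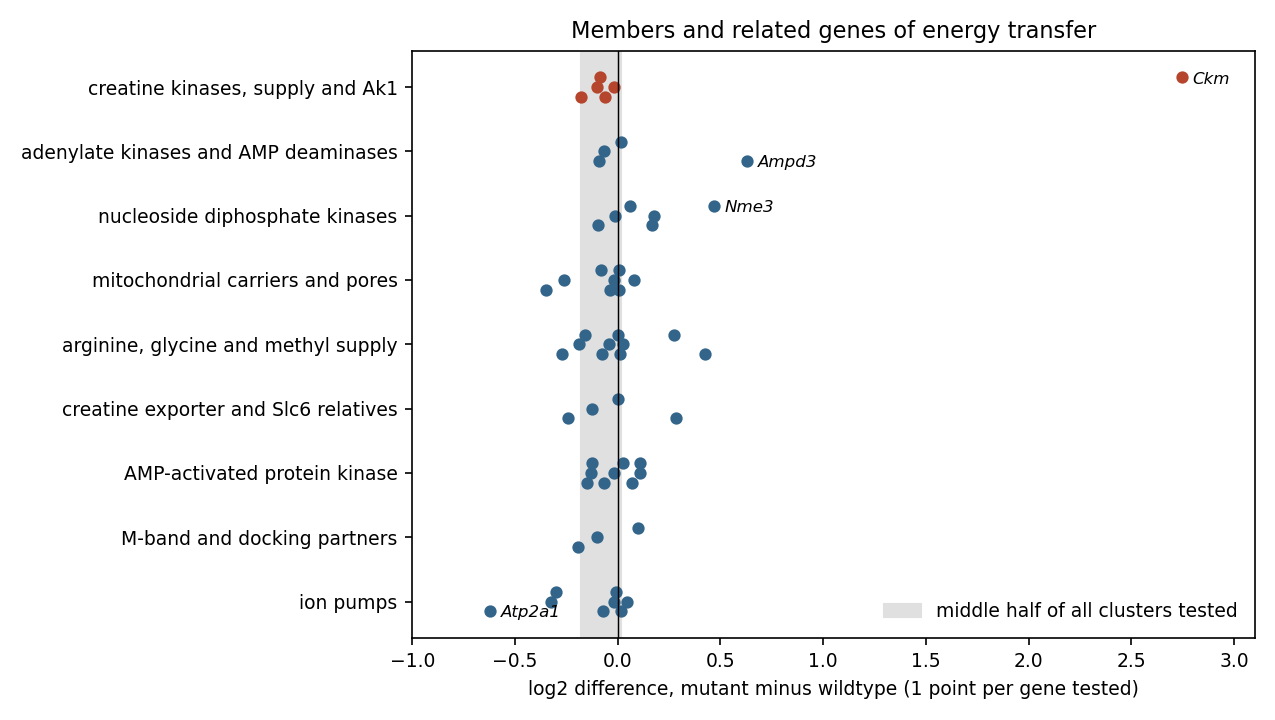
Log2 difference, mutant minus wildtype, of each gene tested (1 point a gene), for the members in the top row and the 8 related lists below, with the range between the quartiles of all clusters tested as a grey band. *Ckm* lies at 2.75 and the 52 related genes between -0.62 (*Atp2a1*) and 0.63 (*Ampd3*).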

How the data were processed

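RNA of 6 pools of E9.5 hearts, 3 per genotype, was hybridised to Affymetrix Mouse Exon 1.0 ST arrays. The authors deposited log2 values after RMA normalisation in Affymetrix Expression Console, 1 per gene of its core set, and RMA draws the arrays towards a common distribution. Software version and genome build: not given in the sources used here. All 6 columns were used as deposited, and the number of arrays limits the precision.

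Clusters with no gene were dropped, as were those whose linear mean did not exceed 100 in either genotype. Each gene was read from its own single-gene cluster, the brightest where it had several. The contrast of mutant against wildtype was fitted in limma 3.58.1 (R 4.3.3, lmFit and eBayes), with the Benjamini-Hochberg procedure and a threshold of 0.05. Replicates were separate pools of embryos. The code was tested on simulated data. Exact permutation tests used scipy 1.17.1, and figures matplotlib 3.10.9.

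Members, lists and tests were chosen with earlier results of these data known. Genes named are the members, *Hic2*, up to 4 of each related list with the lowest p, the 6 closest to *Ckm* and its 8 neighbours, and from the marker lists those that define a cell type or were singled out after their values were seen. Gene order came from the RefSeq table of GRCm38.p6, matched by Entrez identifier for 14938 clusters, and promoters matched 7 of the 8 members.

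Deviations from the group means correlated at 0.311, 0.142 and 0.458 between arrays with the same replicate number and at -0.424 to 0.302 between arrays with different numbers, so the numbers did not match best in every case, and the number was tried as a block. What the numbers stand for is not given in the labels. The other alternatives were the methods' t-test (equal variances), limma with an intensity trend or robust variances, other filters, other scalings, an erythroid covariate, averaging a gene's clusters and leaving out each array.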

Additional observations from a re-analysis of the deposited data

How the results depend on the processing

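*Ckm* was higher in the mutant in all 21 alternatives, at 2.62 to 3.01, and passed the adjusted threshold in the 19 that used limma. With each array left out in turn it ran from 2.62 to 2.89 (adjusted p from 1.95e-04 to 0.00499). By the methods' t-test the difference was the same 2.75, but its adjusted p was 0.588 on log2 values and 0.656 on linear values. The count of members called was then 0, and 0 clusters were called in all, with 165 higher and 423 lower at an unadjusted p under 0.05 on log2 values. With the replicate block the difference was 2.75 (adjusted p = 2.82e-04 from limma). Members called stayed at 1, *Cldn13* passed under the block (adjusted p = 0.0125), and no other call of a named gene changed with it, while 281 clusters were higher at an unadjusted p under 0.05, against 175 without it. The change of *Ckm* against each other member was rerun after quantile normalisation, cyclic loess and median centring and with each array left out. *Ckm* exceeded each member every time, which restates its own change. Median centring cannot alter a difference within an array, so it was no check of this result. Of the related genes 0 were called in any alternative, by limma or the methods' t-test.

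Over all clusters, 7 were higher and 0 lower by limma. Leaving out single arrays gave 4 to 8 higher and 0 to 4 lower, with 4 higher without mutant replicate 1 or wildtype replicate 2, and 4 lower without wildtype replicate 3. Lower clusters numbered 1 after median centring or cyclic loess, 3 after quantile normalisation and 5 after cardiomyocyte marker centring, and 1 cluster was higher with the erythroid covariate. *Hic2* passed after median centring (adjusted p = 0.0441), cyclic loess (0.0388), quantile normalisation (0.0390) or cardiomyocyte marker centring (0.0196) and without wildtype replicate 3 (0.0249).

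Differences near 0 changed sign. *Gamt* was at 0.0472 after cyclic loess, 0.0214 after quantile normalisation and -0.21 to 0.0819 with an array left out, and *Slc6a8* at 0.0062 after cyclic loess and -0.14 to 0.0044 with an array left out. *Slc16a12* was at 0.0713 after cyclic loess, 0.0586 after quantile normalisation, 0.0125 with the erythroid covariate and -0.0344 to 0.0174 with an array left out. With an array left out, *Klc3* ranged from -0.0694 to 0.13 and *Ak4* from -0.13 to 0.18. After cardiomyocyte marker centring, *Klc3* was at -0.0855, *Ak4* at -0.11, *Slc25a4* at -0.0469, *Prkab2* at -0.0188, *Prkag3* at -0.0220 and *Fhl2* at -0.0281. *Slc6a9* was at -0.13 with the erythroid covariate. With an array left out *Ckb* ran from -0.29 to -0.0496, *Gatm* from -0.19 to -0.0504 and *Ak1* from -0.12 to -0.0482. The cause of these changes was not tested.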
